A study of Mus musculus with 6 samples.

Results

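The insulin-like growth factor (IGF) axis was followed in whole testes of mice at postnatal day 4, through 10 genes picked by symbol from the 54232 genes counted. They are the ligand genes Igf1 and Igf2, the imprinted RNA gene H19 beside Igf2, the receptor genes Igf1r, Igf2r and Insr, and the genes of the binding proteins Igfbp2, Igfbp3, Igfbp4 and Igfbp5. All 10 were found and all 10 passed the filter on low counts. There were 3 samples labelled Dis3l2 WT (wild type) and 3 labelled Dis3l2 cKO (conditional knockout), all on the strain given as B6D2F1 inbred. The labels name no Cre driver and no deleted exons, and they do not say whether each sample is its own animal. The p-values thus cover the spread between 3 samples per group, which may be technical. Per the labels, the experiment was meant to list genes with different expression in control and cKO testes.

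IGF1 and IGF2 are secreted growth factors that act through the tyrosine kinase receptor IGF1R, and IGF2 also acts through the insulin receptor INSR. IGF2R has no kinase; it takes IGF2 up and sends it to lysosomes, while the IGFBP proteins hold the ligands outside the cell. In the fetal and newborn testis the insulin and IGF receptors are needed for the number of Sertoli cells, and Leydig and stromal cells are sources of the ligands. Igf2 is read from the paternal chromosome and its neighbour H19, an untranslated RNA and the host of the microRNA miR-675, from the maternal one. DIS3L2 is a cytoplasmic exoribonuclease that degrades RNAs tailed with uridines, and let-7 precursors are its best-known substrates. Its loss in humans causes Perlman syndrome, an overgrowth disorder with Wilms tumour, and higher Igf2 has been described in kidney progenitors of mice without Dis3l2. The question put to these testes was whether Igf2 is higher in cKO than in WT.

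Depth ranged from 26126694 to 43265614 counts per library, lowest in cKO replicate 1. Dis3l2 itself had 32.0 ± 0.930 CPM (counts relative to the library size, scaled by the trimmed mean of M values, TMM) in WT and 31.7 ± 1.65 CPM in cKO (n = 3 each, SD). A count over the whole gene takes in exons outside a deleted part and cells without a deletion, so it does not check the genotype labels. Marker genes of the testis were present. The 12 germ cell markers together held 1295.0 to 1364.9 CPM in WT against 711.8 to 759.8 CPM in cKO, and 11 of the 12 were called lower. Sertoli markers summed to 5741.2 to 5839.5 CPM in WT against 6135.0 to 6908.0 CPM in cKO (2 of 12 called higher, 1 lower), and Leydig markers to 1004.4 to 1043.0 and 1060.1 to 1222.3 CPM (4 of 10 higher, 1 lower). Macrophage markers summed to 107.6 to 118.2 and 140.8 to 142.5 CPM (4 of 12 higher, 0 lower). Endothelial markers summed to 623.7 to 644.7 CPM in WT and 662.6 to 722.5 CPM in cKO (1 of 10 higher, 0 lower). Duct and surface epithelium markers summed to 54.0 to 57.4 and 28.1 to 52.4 CPM (0 of 8 higher, 2 lower), lowest in cKO replicate 1. In cKO replicate 1 the stromal and peritubular myoid markers stood apart from the other cKO libraries, as given beside Igfbp3. A gene is called here when its adjusted p in the edgeR quasi-likelihood test, with Benjamini-Hochberg adjustment over the 20153 genes tested, was under 0.05. By this rule 3.4% of all genes tested were called higher and 4.94% lower.

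Sequences that bear on the locus come first, because they show what the Igf2 count rests on and which small RNAs the locus hosts. All coordinates are GRCm38. Igf2 (chr7:142650766-142666816, minus strand, protein-coding) has 5723 exonic bases in the counted gene models. The predicted gene Gm49394 (chr7:142650769-142669942) lies over it on the same strand and covers 3596 of these bases (62.8%), including all 540 coding bases of the transcript Igf2-201. Reads that touch more than 1 gene were not counted. The Igf2 count therefore came from 2127 bases (37.2% of the exonic bases), of which 1650 (77.6%) lie in the alternative first exons of Igf2-201 and 3 other transcripts that begin further upstream. By bases it covers mostly these first exons, with the coding sequence of Igf2-201 and all but 3 bases of the last exon outside it. How the counted reads were spread over these bases is not known, as the counts are totals per gene.

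**Figure D1:**
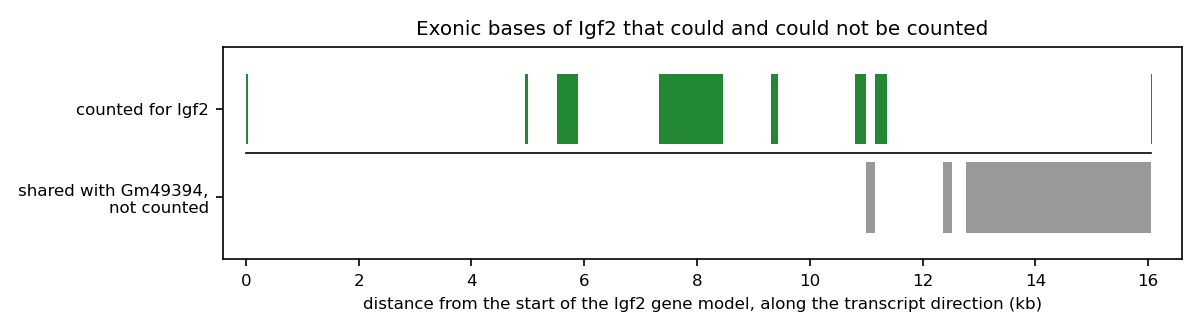
Exonic bases of Igf2 along the gene, with the distance from the start of the gene model in kilobases on the x axis, in the direction of transcription. Green blocks (upper row) were counted for Igf2 and grey blocks (lower row) are shared with Gm49394 and were not. All but 3 of the 2127 counted bases lie upstream of the last exon, and the 3-base block at the right end is widened to be visible.

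Igf2 has several start sites, and 4 are listed in RefSeq (GRCm38.p6). For the start at position 142657496, which opens the first exon of Igf2-201, and for the most upstream one, at position 142666816, the 150 bases before the start are printed below, read on the minus strand (chr7:142657497-142657646 and chr7:142666817-142666966). They are shown as the promoter of the transcript with the coding sequence named above and that of the gene model's own start. The exons these starts open hold 109 and 41 of the 2127 counted bases. Most of the counted bases (1126 and 374) lie in the exons that hold the other 2 listed starts, whose windows overlap annotated first exons and are not printed. Capitals mark the letters GGGCGG, the core of an SP1-type GC box, searched on both strands together with TATAAA and CCAAT.
Igf2 start at 142657496: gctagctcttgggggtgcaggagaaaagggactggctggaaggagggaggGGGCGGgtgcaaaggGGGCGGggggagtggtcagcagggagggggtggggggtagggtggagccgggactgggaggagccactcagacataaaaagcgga
Igf2 start at 142666816: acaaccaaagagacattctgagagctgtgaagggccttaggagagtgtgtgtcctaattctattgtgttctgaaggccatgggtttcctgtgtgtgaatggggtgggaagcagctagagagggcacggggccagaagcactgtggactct

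The window at 142657496 holds 2 copies of GGGCGG and 4 CpG pairs, and the upstream window holds 0 copies and 1 CpG. Over 32851 such windows of all genes, 28.6% held GGGCGG or its complement, 7.6% TATAAA and 24.5% CCAAT; neither Igf2 window holds the last 2. These are matches of letters only. The deposited counts are totals per gene and do not say which start was used.

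MicroRNAs hosted by the locus, and the let-7 family whose precursors are known DIS3L2 substrates, are given as mature sequences from RefSeq, with the seed (bases 2 to 8) in capitals. Of the mature mouse sequences in the table, 11 share the let-7 seed, and let-7a stands for them.
let-7a-5p: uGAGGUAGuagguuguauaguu
miR-675-3p: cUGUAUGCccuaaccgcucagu
miR-675-5p: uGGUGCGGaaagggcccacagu
miR-483-3p: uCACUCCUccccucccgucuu
miR-483-5p: aAGACGGGagaagagaagggag

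Mature miR-675 lies within H19 (the 3p arm at chr7:142577078-142577099) and miR-483 within an intron of Igf2 (the 3p arm at chr7:142654932-142654952). Each of the 5 sequences has its own seed. The gene models Mir675 and Mir483 had 0 counts in every library, and reads from Mir675 that also lie in H19 were not counted, so the libraries give no level for these small RNAs.

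Of the 10 genes, 2 were called higher in cKO (Igf2 and H19), 0 were called lower and 8 were not called. Among all 20153 genes tested, 8.34% were called, 3.4% higher and 4.94% lower. At an unadjusted p under 0.05 in edgeR, 5 of the 10 were higher and 0 lower, where 11.3% of all genes were higher and 12.1% lower. DESeq2 called 3 higher and 0 lower (5.61% and 7.55% of its genes), and limma-voom 2 and 0 (3.71% and 5.23%). Without cKO replicate 1, 3 of the 10 were called higher in edgeR (8.09% of genes) and 1 lower (8.26%). On libraries scaled to summed somatic markers 1 was called higher (2.01% of genes) and 0 lower. For 5 of the 10 (Igf1, Igf2, H19, Insr and Igfbp4) every cKO library lay above every WT library, against 13.6% of all genes tested, and 8 had a fitted log2 fold change above 0, against 51.7%. Their median log2 fold change was 0.14, beside 0.01 over all genes. These shares describe the genes and carry no test of their own.

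**Figure D2:**
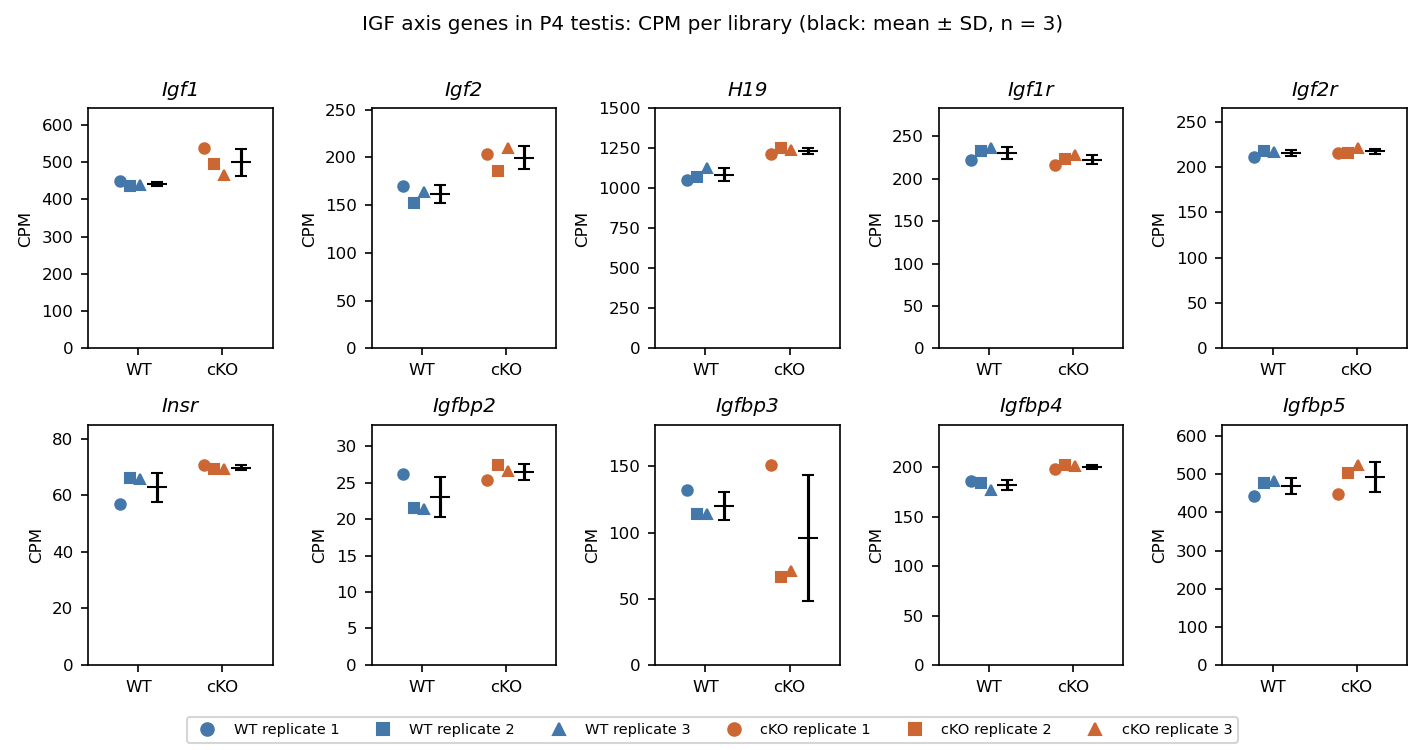
CPM (y axis, from 0) of the 10 IGF axis genes in each library, by genotype (x axis). Points are single libraries, with the replicate number as the shape, and black bars are the mean ± SD of 3; Igf2, H19, Igf1, Insr and Igfbp4 do not overlap between the groups, and Igfbp3 in cKO replicate 1 lies far above the other cKO libraries.

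Igf2 was higher in the cKO testes. Its level was 170.3, 151.9 and 163.3 CPM in WT replicates 1 to 3 and 203.1, 185.9 and 209.3 CPM in cKO replicates 1 to 3. The groups did not overlap, the lowest cKO library (replicate 2) being above the highest WT library (replicate 1). The mean went from 162 ± 9.28 to 199 ± 12.1 CPM (n = 3 each, SD), a 1.23-fold difference (95% interval 1.12 to 1.35; log2 fold change 0.30, SE 0.06, adjusted p = 0.0106 in edgeR). All alternatives kept this direction, with log2 fold changes of 0.26 to 0.35. Leaving out WT replicate 2 (0.26, adjusted p = 0.0849, edgeR) or WT replicate 3 (0.31, adjusted p = 0.0503, edgeR) ended the call. In whole testis, more cells of the type that makes a transcript and more of it per cell cannot be told apart. In the same cKO libraries the germ cell and the duct and surface epithelium sums above were lower. The Sertoli, Leydig, endothelial and macrophage sums were higher. The part of these cell types in the Igf2 result was not tested.

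Reads of Gm49394 alone were few, with 13, 13 and 26 counts in WT and 7, 2 and 15 in cKO. Its groups overlapped (log2 fold change -0.80, SE 0.66, adjusted p = 0.527 in edgeR). With the counts of Igf2 and Gm49394 summed, an alternative chosen after seeing the data, the Igf2 log2 fold change was 0.30 (edgeR adjusted p = 0.0111). With so few Gm49394 counts this sum could hardly differ from Igf2 alone. Reads over the shared bases were counted for neither gene and stay left out, so the sum does not test the effect of the overlap.

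H19 (chr7:142575529-142578143, minus strand, lincRNA) was also higher in cKO. It shares 84 of its 2460 exonic bases with Mir675 (3.41%). WT replicates 1 to 3 had 1054, 1072 and 1130 CPM, and cKO replicates 1 to 3 had 1215, 1250 and 1241 CPM. Again no WT library reached the cKO range. From 1085 ± 40.0 CPM in WT to 1235 ± 17.8 CPM in cKO (n = 3 each, SD), the fold was 1.14 (95% interval 1.06 to 1.22; log2 fold change 0.19, SE 0.05, adjusted p = 0.024 in edgeR). The H19 call was lost without WT replicate 1 (0.17, adjusted p = 0.103), WT replicate 2 (0.18, 0.136) or cKO replicate 2 (0.18, 0.106), and when libraries were scaled to the summed somatic markers (0.24, 0.161), all by edgeR.

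Within a library the ratio of 2 genes does not depend on how the library is scaled. Igf2 over H19 was 0.149 in WT and 0.161 in cKO (log2 -2.75 ± 0.10 and -2.63 ± 0.10, n = 3 each, SD). By library the log2 ratios were -2.63, -2.82 and -2.79 in WT and -2.58, -2.75 and -2.57 in cKO. The groups overlapped, since cKO replicate 2 lay below WT replicate 1, with a difference of 0.11 (exact two-sided permutation test, p = 0.2). With 3 samples in each group that test cannot give a p under 0.1.

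Against its clearance receptor, Igf2 was higher in every cKO library than in any WT library. Igf2 over Igf2r counts had log2 ratios of -0.31, -0.52 and -0.41 in WT and -0.09, -0.21 and -0.07 in cKO. The mean went from -0.41 ± 0.10 to -0.125 ± 0.077 (n = 3 each, SD), a ratio of 0.752 in WT and 0.917 in cKO. The groups were apart by 0.29 (exact two-sided permutation test, p = 0.1, the lowest possible here).

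Somatic markers gave a mixed reference. Taken as log2 CPM minus the mean over 52 Sertoli, Leydig, stromal, myoid and endothelial markers, Igf2 was 0.34, 0.25 and 0.33 in WT and 0.55, 0.48 and 0.61 in cKO. The groups did not overlap, and the difference was 0.25 (exact two-sided permutation p = 0.1). It was 0.30 against the stromal markers alone (p = 0.1, exact), 0.16 against the Sertoli markers alone (p = 0.2, exact) and 0.14 against the Leydig markers alone (p = 0.3, exact). With the median level of the 52 markers in each library in place of their mean, it was -0.04 (p = 0.8, exact). That median is set by the markers of middle rank, which are not the same genes in every library. It is thus not the typical change of a marker. The median log2 fold change of the 52 markers was 0.10, with 35 fitted above 0, beside 0.30 for Igf2.

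**Figure D3:**
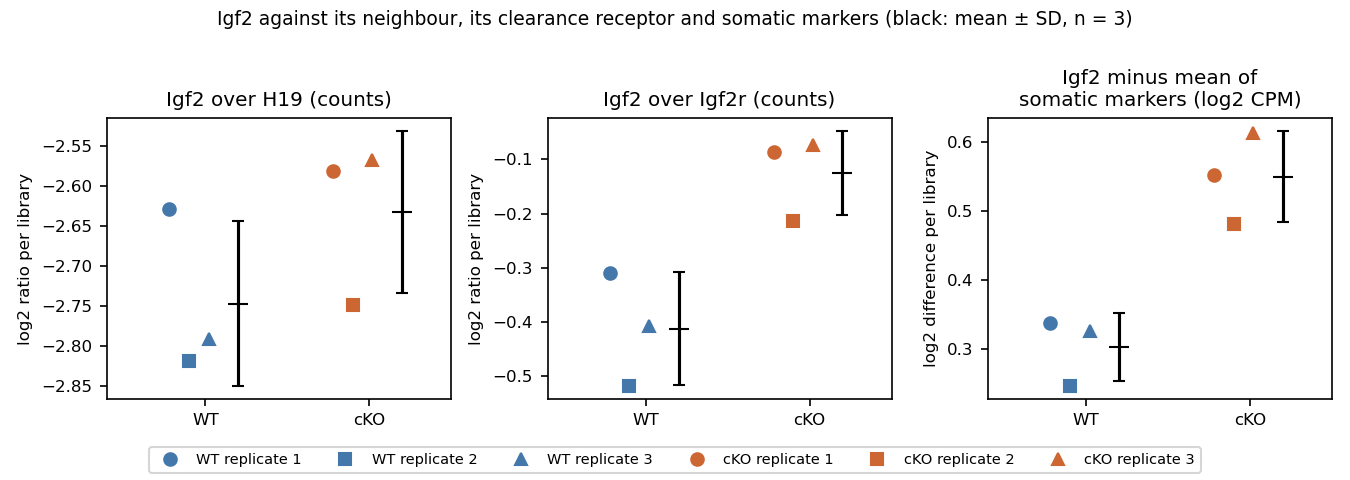
Igf2 in each library relative to H19 counts, to Igf2r counts and to the mean of 52 somatic markers, on a log2 scale (y axis, not from 0), by genotype (x axis). Points are libraries and black bars the mean ± SD of 3; the groups overlap for the ratio to H19 and are apart for the other two.

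Igf1 (chr10:87858265-87937042, plus strand), the other ligand gene, had 448.0, 436.8 and 437.2 CPM in WT against 536.2, 494.2 and 465.4 CPM in cKO. Every cKO library lay above WT, with replicate 3 the closest. The mean was 441 ± 6.34 CPM in WT against 499 ± 35.6 CPM in cKO (n = 3 each, SD; log2 fold change 0.18, SE 0.06, adjusted p = 0.0707 in edgeR), which did not pass the threshold. The 95% interval of the log2 fold change ran from 0.06 to 0.30. Igf1 did pass in DESeq2 (0.18, adjusted p = 0.041) and, in edgeR, without cKO replicate 3 (0.22, adjusted p = 0.0246).

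**Figure D4:**
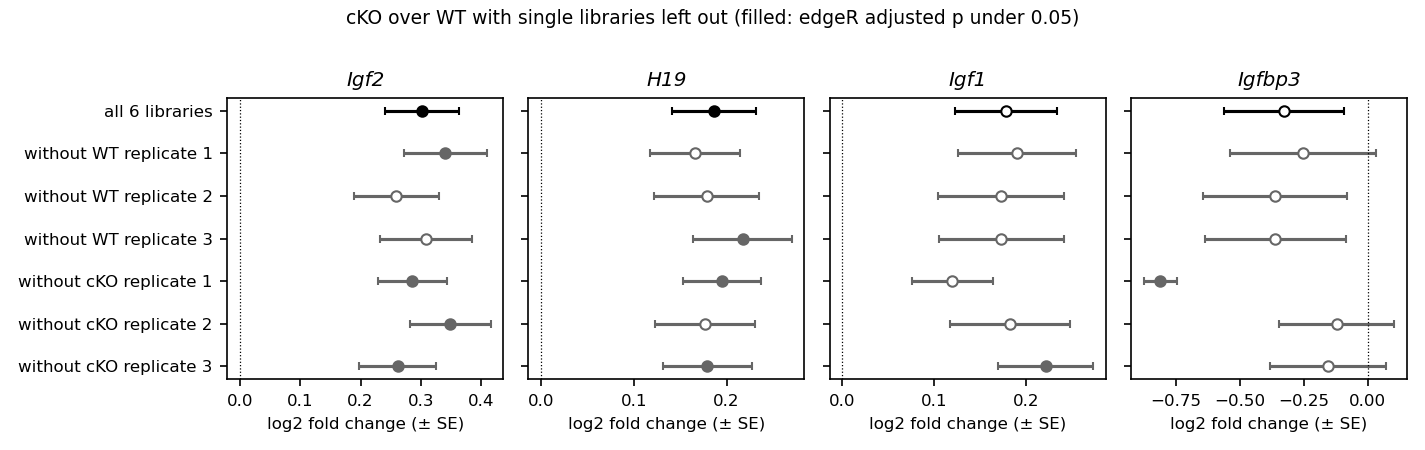
Log2 fold change of cKO over WT (x axis, ± SE) for Igf2, H19, Igf1 and Igfbp3 with all 6 libraries and with each left out in turn (rows); filled points have an edgeR adjusted p under 0.05. Igf2, H19 and Igf1 stay above 0 in every row, and Igfbp3 is at -0.81 without cKO replicate 1.

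None of the 3 receptor genes was called. Igf1r (chr7:67952827-68233668, plus strand) encodes the signalling receptor for both ligands and had 222.4, 233.2 and 235.7 CPM in WT against 216.8, 223.6 and 227.6 CPM in cKO. The groups overlapped (log2 fold change -0.05, SE 0.05, adjusted p = 0.613 in edgeR), with a 95% interval of -0.16 to 0.06. Igf2r (chr17:12682406-12769664, minus strand) had 211.2, 217.4 and 216.6 CPM in WT against 215.7, 215.6 and 220.3 CPM in cKO. Its interval was the narrowest but for H19, from -0.09 to 0.12 around a log2 fold change of 0.01 (SE 0.05, adjusted p = 0.897 in edgeR). Both fitted values changed sign with the scaling: Igf1r was 0.0006 on the somatic marker scale and Igf2r was -0.0046 on library size alone.

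Insr (chr8:3122061-3279617, minus strand), the insulin receptor gene, had 56.99, 66.01 and 65.69 CPM in WT against 70.74, 69.20 and 69.31 CPM in cKO. The cKO libraries all lay above WT, of which replicate 1 was the lowest. The log2 fold change was 0.15 (SE 0.07, 95% interval 0.003 to 0.295, edgeR adjusted p = 0.205), and without WT replicate 1 it was 0.08 (edgeR adjusted p = 0.548).

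The receptor transcripts carry matches to the seeds shown above, in the 3′ UTRs of GENCODE M21 transcripts. A let-7 match (CTACCTC on the transcript strand) was found in 4 of the 9 protein-coding members with a 3′ UTR searched, namely Igf1r, Igf2r, Insr and Igfbp5, against 8.8% of 15281 genes. The members' 3′ UTRs differ in length, from 312 bases in Igfbp2 to 7267 bases in Igf1r, and the median over all genes was 921 bases, so the shares are not corrected for length. The matches in the receptor genes are printed with their surroundings, 24 bases each, with the match in capitals.
Igf1r, chr7:68229110-68229133: ttttcaaacatttatCTACCTCac
Igf1r, chr7:68233216-68233239: tttgccagagttcatCTACCTCtg
Insr, chr8:3153197-3153220: tcttctcagtacagtCTACCTCag
Igf2r, chr17:12683035-12683058: cacctgctccgtgccCTACCTCat

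A match to the miR-675-3p seed (GCATACA) was found in Igf1r, with 2, and in Insr, with 1, against 7.3% of genes. In Igf1r, a target of miR-675 in earlier work on placenta, these are printed for comparison.
Igf1r, chr7:68226891-68226914: gctcctcatcaccccGCATACAcc
Igf1r, chr7:68227650-68227673: gaccgtgaaacatttGCATACAca

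A match to the miR-483-3p seed (AGGAGTG) was found in 3 of the 9 members, 1 each in Igf2, Igfbp3 and Igfbp5, against 10.7% of genes. The match in Igf2, the host gene of this microRNA, lies in the last exon, among the bases that were not counted. The seeds of miR-675-5p and miR-483-5p had a match in 0 of the 9, against 1.9% and 2.9% of genes.
Igf2, chr7:142651889-142651912: tccccagaagttctgAGGAGTGga

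Igf2 and Igf1 hold no let-7 match in the 3′ UTRs searched. Igf1r, with 2 let-7 and 2 miR-675-3p matches, had the log2 fold change of -0.05 given above, and Insr, with 1 of each, 0.15. A match is a description of the letters, and the libraries did not measure these microRNAs.

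Among the binding protein genes, Igfbp4 lay apart between the groups and Igfbp3 was split within the cKO group. Igfbp4 (chr11:99041244-99054392, plus strand), whose product inhibits IGF action until it is cut by the protease PAPPA, had 185.8, 184.4 and 176.5 CPM in WT against 198.2, 202.3 and 201.3 CPM in cKO. All cKO libraries were above all WT libraries (log2 fold change 0.14, SE 0.05, 95% interval 0.03 to 0.24, edgeR adjusted p = 0.104). It was called without cKO replicate 1 (0.14, edgeR adjusted p = 0.0424).

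Igfbp3 (chr11:7206086-7213923, minus strand) encodes the main carrier of IGFs in adult serum. WT libraries had 132.0, 113.9 and 114.3 CPM. The cKO libraries had 151.0, 66.48 and 70.88 CPM, so cKO replicate 1 was the highest of all 6 and the other cKO libraries were the lowest. The mean was 120 ± 10.3 CPM in WT against 96.1 ± 47.6 CPM in cKO (n = 3 each, SD; log2 fold change -0.33, SE 0.23, adjusted p = 0.453 in edgeR). Without cKO replicate 1 the log2 fold change was -0.81 (SE 0.07, adjusted p = 1.668e-08 in edgeR). With no filter on low counts the same 6 libraries gave -0.34 and a call (SE 0.07, edgeR adjusted p = 7.887e-05). That SE is well below the 0.23 of the main fit and does not reflect the split of the cKO libraries. DESeq2 gave -0.32 (SE 0.39, adjusted p = 0.676). Without cKO replicate 2 the log2 fold change was -0.12 (edgeR adjusted p = 0.848).

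The same library stood apart in other markers. Its 12 stromal markers summed to 13226.5 CPM, within the WT range of 12643.4 to 13575.4 CPM, where cKO replicates 2 and 3 had 10229.9 and 10337.2 CPM. Its 8 peritubular myoid markers summed to 2683.8 CPM, above the WT range of 2163.5 to 2235.9 CPM, where the other cKO libraries had 1989.2 and 2001.4 CPM. By call, the stromal list had 3 of 12 higher and 2 lower and the myoid list 0 of 8 in either direction (3.4% of all genes higher, 4.94% lower). None of these markers was at 0. Their part in the Igfbp3 result was not tested. Without cKO replicate 1, 1670 genes were called higher and 1705 lower, against 685 and 996 with all libraries.

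Igfbp2 and Igfbp5 are neighbours on chromosome 1, and their groups overlapped. Igfbp2 (chr1:72824503-72852474, plus strand) had 26.20, 21.57 and 21.34 CPM in WT against 25.33, 27.42 and 26.66 CPM in cKO. WT replicate 1 reached the cKO range (log2 fold change 0.20, SE 0.09, 95% interval -0.002 to 0.40, edgeR adjusted p = 0.219), and without WT replicate 1 the log2 fold change was 0.30 (edgeR adjusted p = 0.0964). Igfbp5 (chr1:72857932-72874884, minus strand), a matrix-bound binding protein gene, had 444.4, 477.7 and 483.5 CPM in WT against 448.1, 504.5 and 524.5 CPM in cKO. In both groups replicate 1 was the lowest (log2 fold change 0.07, SE 0.06, 95% interval -0.06 to 0.21, edgeR adjusted p = 0.548). With a single library left out, its log2 fold change ran from 0.02 without cKO replicate 3 (edgeR adjusted p = 0.906) to 0.13 without cKO replicate 1 (edgeR adjusted p = 0.0555).

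Levels between genes were compared per kilobase, as RPKM on the bases that could be counted. For Igf2 these lie mostly in first exons that are alternatives to each other, so a given transcript holds only part of them. Its RPKM is therefore a low estimate, and its place in the order below is uncertain. H19 had the highest value of the 10, at 457 ± 16.8 RPKM in WT and 520 ± 7.48 RPKM in cKO (n = 3 each, SD). In WT, Igfbp5 (78.0 ± 3.52 RPKM) and Igf2 (76.1 ± 4.37) followed and did not differ beyond their spread. Next came Igf1 (44.5 ± 0.640), Igfbp4 (41.3 ± 1.14) and Igfbp3 (38.4 ± 3.30), of which the last pair differed by less than the SD of Igfbp3. Igf2r (22.8 ± 0.360) stood above Igf1r (13.7 ± 0.421) and Igfbp2 (12.5 ± 1.48), whose levels lay within an SD of each other, and Insr (4.58 ± 0.372) was the lowest.

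In cKO, Igf2 followed H19 at 93.8 ± 5.70 RPKM, ahead of Igfbp5 at 82.0 ± 6.59 RPKM. Igf1 (50.3 ± 3.6), Igfbp4 (45.4 ± 0.488) and Igfbp3 (30.7 ± 15.2) again came next, and the wide spread of Igfbp3 took in the level of Igfbp4 and that of Igf2r (23.0 ± 0.279). Igfbp2 (14.3 ± 0.573) lay above Igf1r (13.3 ± 0.328), with Insr at 5.07 ± 0.0630. On the full exonic length of Igf2, its level was 28.3 RPKM in WT and 34.9 RPKM in cKO, which would place it next to Igfbp3. Its place in the order thus depends on the length used, and neither length is that of a single transcript. Its fold difference between the groups does not depend on the length.

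Around Igf2, 22 gene models had bounds within 250 kb, and 13 of them were kept. Of these, 3 were called higher (3.4% of all genes), 0 lower, and 12 of 13 had fitted values above 0 (51.7% of all genes). The 3 called are Igf2 and H19 themselves and Gm27786, a model inside H19 on its opposite strand, so these counts are not separate from the results above. The protein-coding neighbours Lsp1 (149 ± 7.66 CPM in WT, 165 ± 19.6 CPM in cKO, n = 3 each, SD; log2 fold change 0.15, edgeR adjusted p = 0.271) and Mrpl23 (20.9 ± 1.74 and 23.6 ± 1.86 CPM; 0.17, edgeR adjusted p = 0.293) were not called. Ins2, an insulin gene, was low, at 3.80 ± 0.0790 CPM in WT against 4.38 ± 0.671 CPM in cKO (n = 3 each, SD; 0.21, edgeR adjusted p = 0.495). The muscle genes Tnni2 (log2 fold change 0.14) and Tnnt3 (0.48), the lincRNA Gm33148 (0.13) and the pseudogene Gm7290 (0.63) all had overlapping groups and means under 2 CPM, and none was called.

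Gene models on the opposite strand had low counts. Whether these are transcripts of that strand or reads of Igf2 and H19 placed on the wrong strand was not tested. Igf2os, the antisense gene that overlaps the upstream part of Igf2, had 2.24, 3.15 and 2.96 CPM in WT against 3.58, 4.71 and 4.21 CPM in cKO. All cKO libraries were above WT, and the difference was not called (log2 fold change 0.59, SE 0.19, adjusted p = 0.0781 in edgeR), though it was called without cKO replicate 1 (0.68, edgeR adjusted p = 0.0201). Gm27786 and Gm27483 are short models of the class misc_RNA inside H19 on its opposite strand. Gm27786 had 0.535 ± 0.237 CPM in WT against 1.35 ± 0.190 CPM in cKO (n = 3 each, SD; log2 fold change 1.34, SE 0.37, adjusted p = 0.0468 in edgeR), and it was not called with WT replicate 1 or 2, or cKO replicate 2 or 3, left out. Gm27483 was not called (0.70, edgeR adjusted p = 0.622).

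Over the 6 samples, the 5 protein-coding genes with a pattern most like Igf2, by Pearson's r of log2 CPM among 10017 genes that averaged 10 CPM or more, were Usp48 (0.993), Nmnat1 (0.993), As3mt (0.991), Sema4c (0.989) and Rpl30 (0.988). Of these, Sema4c (log2 fold change 0.34, edgeR adjusted p = 0.0272) and Rpl30 (0.31, edgeR adjusted p = 0.0063) were called higher, and the others were not. All 5 were picked for likeness to Igf2 in these same libraries, so a higher level in cKO follows from the choice and is not separate evidence. Leaving out WT replicate 2 (0.28, adjusted p = 0.159, edgeR), WT replicate 3 (0.33, 0.108) or cKO replicate 3 (0.27, 0.0855) ended the Sema4c call, and leaving out WT replicate 2 that of Rpl30 (0.28, 0.0618). Among the members, Igfbp4 (0.834) and H19 (0.829) had the highest r with Igf2, followed by Igfbp2 (0.747) and Igf1 (0.746), and Igf1r had the lowest (-0.647). In all, 627 of the 10017 genes had an r at least as high as that of H19. These r values describe 6 libraries of 2 groups and share their scaling.

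Other genes of the IGF and insulin pathway were read from 5 lists of 61 genes, of which 58 were tested. In total 3 were called higher, 6 lower and 49 not called, with a median log2 fold change of 0.01, as over all genes; 3.4% of all genes were higher and 4.94% lower. By list the medians were 0.145 for further ligands and IGF availability, 0.06 for mRNA-binding proteins and locus regulators, 0.10 for growth hormone input, 0.08 for receptor adaptors and -0.04 for PI3K, AKT, mTOR and FOXO. Igfals and Igfbp1 were under the filter, and Ins1 had no count in any library.

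**Figure D5:**
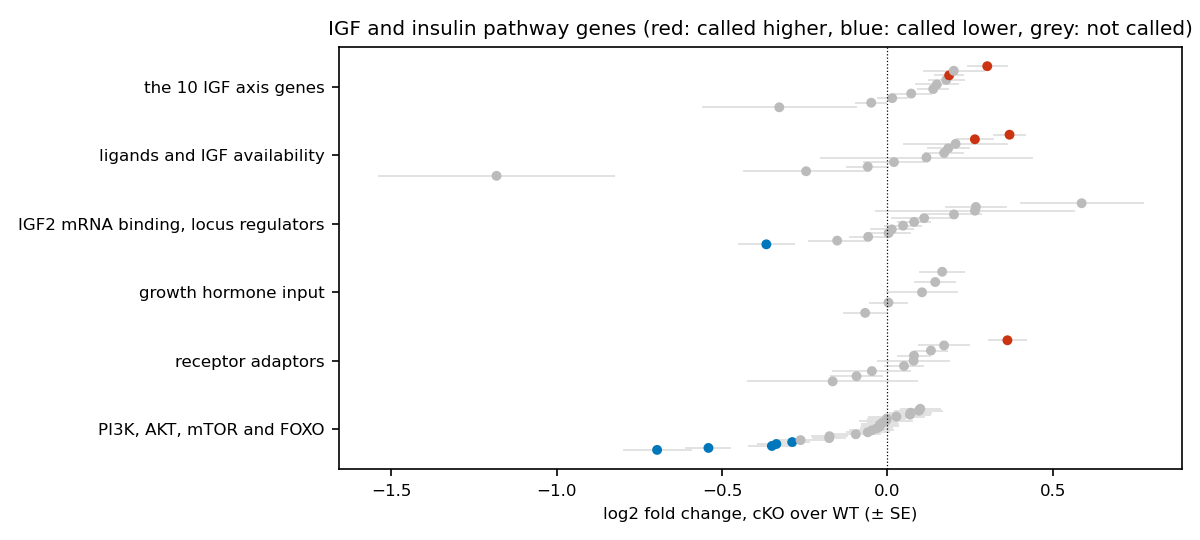
Log2 fold change of cKO over WT (x axis, ± SE) for the 10 IGF axis genes and the tested genes of 5 pathway lists (rows), in order of value within a row. Red points were called higher, blue points lower and grey points not called; 5 of the 6 lower calls are in the PI3K, AKT, mTOR and FOXO list.

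Among further ligands and proteins that set IGF availability, 2 of 10 were called higher and 0 lower in edgeR, DESeq2 and limma-voom. Over all genes 3.4%, 5.61% and 3.71% were higher in these tools, and 4.94%, 7.55% and 5.23% lower. At an unadjusted p under 0.05 in edgeR, 4 were higher and 1 lower (11.3% and 12.1% of all genes). Igfbp7, a binding protein of low IGF affinity, had 206.1, 207.5 and 223.1 CPM in WT against 276.3, 276.9 and 269.1 CPM in cKO, with no overlap (log2 fold change 0.37, SE 0.05, adjusted p = 0.000887 in edgeR). It was called in all 16 alternatives. Stc1 encodes stanniocalcin, an inhibitor of the PAPPA protease, and had 74.24, 73.03 and 74.34 CPM in WT against 83.31, 91.98 and 90.78 CPM in cKO (log2 fold change 0.26, SE 0.06, adjusted p = 0.0149 in edgeR). The Stc1 call was lost without any 1 of the WT replicates or without cKO replicate 2 (0.24 to 0.27, edgeR adjusted p from 0.069 to 0.0993) and on the somatic marker scale (0.32, edgeR adjusted p = 0.0936). Htra1, a secreted protease, was the second most abundant of the list and was not called (0.17, edgeR adjusted p = 0.112), except without cKO replicate 1 (0.21, edgeR adjusted p = 0.00938).

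Of 12 genes for IGF2 mRNA-binding proteins and regulators of the locus, 1 was lower and 0 were higher in edgeR, DESeq2 and limma-voom. Over all genes 4.94%, 7.55% and 5.23% were lower in these tools. At an unadjusted p under 0.05 in edgeR, 3 were higher and 1 lower (11.3% and 12.1% of all genes). Igf2bp1, which encodes an RNA-binding protein of fetal cells that binds Igf2 mRNA, had 55.90, 59.70 and 61.26 CPM in WT against 39.24, 47.01 and 50.71 CPM in cKO. Every cKO library lay below WT, replicate 1 the most (log2 fold change -0.37, SE 0.09, adjusted p = 0.0225 in edgeR). The call was lost without any 1 of the WT replicates or without cKO replicate 2 (-0.40 to -0.34, edgeR adjusted p from 0.0642 to 0.118) and on the somatic marker scale (-0.31, edgeR adjusted p = 0.188). Its relatives Igf2bp2 (93.8 ± 2.17 CPM in WT, 96.97 ± 5.31 CPM in cKO, n = 3 each, SD; 0.05, edgeR adjusted p = 0.689) and Igf2bp3 (64.3 ± 2.77 and 61.7 ± 0.964 CPM; -0.06, edgeR adjusted p = 0.615) were not called.

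Igf2bp1 holds 4 let-7 matches in its 3′ UTR of 6337 bases, where Igf2bp2 and Igf2bp3 hold 1 each, and let-7 regulation of this family is well described. The 4 are printed because this was the only member of its list that was called.
Igf2bp1, chr11:95961777-95961800: gctgtgcgaagtaaaCTACCTCaa
Igf2bp1, chr11:95959356-95959379: cagcagtgctattaaCTACCTCag
Igf2bp1, chr11:95958762-95958785: gtataaatggatgaaCTACCTCag
Igf2bp1, chr11:95958139-95958162: acttttggttttaatCTACCTCtt

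The first 3 are followed by an A. Over the pathway lists, 12 of 57 searched genes held a let-7 match. Hmga2, a well-known let-7 target with 4 matches, had 1.25 ± 0.485 CPM in WT against 1.51 ± 0.0850 CPM in cKO (n = 3 each, SD; log2 fold change 0.26, SE 0.30, adjusted p = 0.666 in edgeR). Hmga2 and Igf2bp1 are the genes of these lists with the most let-7 matches, at 4 each. The libraries did not measure let-7, and its part in the values of these genes was not tested.

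The most abundant genes of that list were Plagl1, an imprinted zinc finger gene, and Ctcf, whose product binds the control region between Igf2 and H19. Plagl1 had 1122, 1153 and 1159 CPM in WT against 1528, 1301 and 1119 CPM in cKO, with overlap (log2 fold change 0.20, SE 0.09, adjusted p = 0.182 in edgeR), and it was called without cKO replicate 3 (0.30, adjusted p = 0.0115, edgeR) and in the unfiltered table (0.19, adjusted p = 0.0183, edgeR). Without cKO replicate 1, its highest library, it was 0.08 (edgeR adjusted p = 0.333). Ctcf was not called (0.08, edgeR adjusted p = 0.38).

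In the list of growth hormone input, which drives Igf1 in liver, 0 of 5 genes were called by edgeR, DESeq2 or limma-voom. At an unadjusted p under 0.05 in edgeR, 2 were higher and 0 lower (11.3% and 12.1% of all genes). Socs2, a feedback inhibitor, had a log2 fold change of 0.14 (edgeR adjusted p = 0.19), which was 0.09 without cKO replicate 2 (edgeR adjusted p = 0.552) and 0.20, and called, without cKO replicate 1 (edgeR adjusted p = 0.0115). Stat5b, a transcription factor, was at 0.003 (edgeR adjusted p = 0.983). Among 9 receptor adaptors, 1 was higher and 0 lower by each of the 3 tools (3.4%, 5.61% and 3.71% of all genes were higher). At an unadjusted p under 0.05 in edgeR, 3 were higher and 0 lower (11.3% and 12.1% of all genes). Grb14, an adaptor that inhibits the insulin receptor, had 56.63, 56.75 and 57.97 CPM in WT against 73.44, 76.63 and 70.25 CPM in cKO, without overlap (log2 fold change 0.36, SE 0.06, adjusted p = 0.0025 in edgeR), and was called in all 16 alternatives. Grb10, its imprinted relative (0.08, edgeR adjusted p = 0.404), and Gab1 (0.13, edgeR adjusted p = 0.14) were not called, except Gab1 without cKO replicate 1 (0.16, edgeR adjusted p = 0.0286).

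The lower calls were mainly in the PI3K, AKT, mTOR and FOXO list, which carries the signal inside the cell, with 5 of 22 lower and 0 higher in edgeR, against 4.94% of all genes lower. DESeq2 called 7 lower and 0 higher (7.55% of its genes were lower), limma-voom 6 and 0 (5.23%), and 8 were lower and 0 higher at an unadjusted p under 0.05 in edgeR (12.1%). Pik3r3, a regulatory subunit gene of PI3K, fell, from 23.2 ± 1.79 CPM in WT to 14.3 ± 1.73 CPM in cKO (n = 3 each, SD; log2 fold change -0.70, SE 0.10, adjusted p = 0.00167 in edgeR). Pik3r2, another regulatory subunit gene, fell, from 97.5 ± 2.69 CPM in WT to 67.0 ± 6.26 CPM in cKO (n = 3 each, SD; -0.54, SE 0.07, adjusted p = 0.000612 in edgeR). Both were called in all 16 alternatives. The catalytic subunit gene Pik3cb (-0.35, edgeR adjusted p = 0.0108) and the transcription factor gene Foxo1 (-0.29, edgeR adjusted p = 0.00626) fell as well, with every cKO library below every WT library, as in 14.6% of all genes tested.

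On the somatic marker scale the calls of Pik3cb (-0.30, edgeR adjusted p = 0.138) and Foxo1 (-0.24, 0.188) were lost, and those of Pik3r2 and Pik3r3 were kept. The SE was larger on that scale, at 0.11 against 0.07 for Pik3cb and 0.09 against 0.05 for Foxo1. Leaving out WT replicate 2 or 3 also ended the call of Pik3cb, and leaving out WT replicate 2 that of Foxo1 (-0.26, edgeR adjusted p = 0.0631). The germ cell markers fell in the same libraries (median log2 fold change -0.74, 11 of 12 called lower). As background, Foxo1 is known as a factor of spermatogonial stem cells. The part of the germ cell share in these calls was not tested. Foxo3, a related factor and among the most abundant of the list, was not called (0.10, edgeR adjusted p = 0.499). It was 0.0086 without cKO replicate 3 (edgeR adjusted p = 0.964) and was called without cKO replicate 1 (0.17, edgeR adjusted p = 0.0334).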

How the data were processed

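RNA of whole testis was measured in 6 libraries, 3 WT and 3 cKO. Per the labels' protocols, libraries used random and poly(T) priming, strand selection and transcript depletion, while the molecule field names polyA RNA. The deposited table holds raw read counts for each gene, made per the file headers with featureCounts 1.6.4 and GENCODE M18 on the gene's strand, without multi-mapped reads, reads over more than 1 gene, or pairing. The submitters' processing notes name cutadapt, HISAT2 and GRCm38.p5, without tool versions. Of 54232 genes, 54165 were named from GENCODE M21, and 0 columns lacked a sample.

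Genes were filtered with filterByExpr (minimum count 10, minimum total 15), scaled by TMM and tested by quasi-likelihood in edgeR 4.0.16 (R 4.3.3, group as the only term, two-sided, Benjamini-Hochberg over 20153 genes). The procedure was tested on simulated data. Ratios used a pseudocount of 0.5, log2 CPM a prior count of 2, and exact two-sided permutation tests. Per kilobase levels leave out bases shared with another model on the same strand, which was chosen after seeing the data. Alternatives were other scalings, filters and tests (DESeq2 1.42.0, limma-voom with limma 3.58.1), leaving out each library, a block for the replicate number, and abundant RNA classes left out. Named genes are all members, called pathway genes, the 2 most abundant of each pathway list, genes kept within 250 kb of Igf2, and the 5 most like it. Igf2bp2, Igf2bp3 and Hmga2 were named after their values were seen. Some genes that this rule selects are counted in their list and not reported singly here. The members and lists were chosen with earlier results of these data known. Precision is limited by 3 samples per group and by depth, of at least 26126694 counts. Figures were drawn with matplotlib 3.10.9 (Python 3.11.15, numpy 2.4.6, pandas 2.3.3, scipy 1.17.1).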

Additional observations from a re-analysis of the deposited data

How the results depend on the processing

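Scaled to the summed somatic markers, 405 genes were called higher and 392 lower (685 and 996 with TMM, 607 and 1200 on library size alone). On that scale 1 member was higher (Igf2) and 2 pathway genes were lower. The sum included Col1a1, at 4113, 2535 and 2594 CPM in cKO replicates 1 to 3. The SE was larger than with TMM, at 0.09 against 0.05 for both H19 and Foxo1. The cause of the lost calls was not tested. With a single library left out, 236 to 1670 genes were higher and 387 to 1705 lower, 0 to 3 members higher, 0 to 1 member lower, 2 to 9 pathway genes higher and 3 to 9 lower, and the log2 fold change of Igf2 was 0.259 to 0.349. It was 0.259 (edgeR adjusted p = 0.0849) without WT replicate 2 and 0.309 (0.0503) without WT replicate 3. The largest counts of all genes were those without cKO replicate 1, and without WT replicate 2 no member was called higher. With no filter on low counts, 1 member, Igfbp3, was lower, with an SE of 0.07 against 0.23 in the main fit. Igf2 against the median level of the somatic markers, which is set by different genes in different libraries, was -0.0423. With a single library left out, Stat5b ran from -0.0423 to 0.0465, Tnni2 from -0.1218 to 0.2839 and Gm33148 from -0.2897 to 0.6343. Other values that changed sign were Igf1r at 0.0006 on the somatic scale, and Igf2r at -0.0046 and Stat5b at -0.0166 on library size alone. Stat5b was also -0.0059 with no filter. DESeq2 called 911 genes higher and 1226 lower, and limma-voom 747 and 1053. Replicate numbers were not shown to pair the samples. Same-numbered WT and cKO libraries had correlated deviations of 0.075, 0.029 and 0.111 over 15726 genes, and each library correlated best with its own number, a hint from the data and not the design. With the replicate block 740 genes were higher and 1058 lower, 3 members were higher, Igf2 was 0.302 (edgeR adjusted p = 0.00462), and Igf1 (0.176, edgeR adjusted p = 0.0434) was called. The block ended the call of Gm27786 (1.38, edgeR adjusted p = 0.0612) and, among the genes refitted singly, changed no other call.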
